A study of Mus musculus with 4 samples.

Results

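Messenger RNA of 47 DNA repair genes was compared between mouse prostate spheres grown with and without the γ-secretase inhibitor DAPT. The genes were taken by name from the excision, mismatch, recombination, Fanconi and end joining pathways, together with 4 checkpoint kinases. Of the 47, 46 had a probe named through RefSeq and 42 had a probe bright enough to be tested, out of 21472 genes tested in all. Atr, the kinase that responds to stalled replication, had no named probe. The probes of Ercc6 and Xrcc3 were not well above background in the sphere channel on any array, that of Bard1 was on 1 DAPT array only, and that of Prkdc was on 1 array of each group. These 4 genes were therefore not tested.

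Basal cells were sorted from prostates of adult FVB mice and cultured as prostate spheres, an assay in which single epithelial progenitors grow into balls of cells. One group received DAPT at 5 µM and the other the solvent DMSO (vehicle), and in both the medium was replaced every 24 h. Each group had 2 arrays, and each array carried sphere RNA in the red dye against pooled mouse reference RNA (Stratagene universal reference) in the green dye. The comparison addresses what Notch signalling does in basal cells, since γ-secretase releases the active part of the Notch receptors. DAPT acts on every substrate of that protease, not on Notch alone.

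Cells mend DNA damage by several routes. Nucleotide excision repair cuts out bulky lesions such as those left by ultraviolet light, and base excision repair removes single damaged or wrong bases. Mismatch repair corrects copying errors behind the replication fork. Double-strand breaks are either copied from the sister chromatid by homologous recombination or rejoined directly by end joining, and the Fanconi proteins act where crosslinks join the strands. Several repair genes belong to those that E2F factors drive as cells enter S phase, so that dividing epithelium carries more of their transcripts.

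One of the 42 tested genes, Ercc3, rose with DAPT and none fell. Ercc3 encodes a helicase of TFIIH, the complex that opens DNA both for transcription and for nucleotide excision repair. Its log2 ratio of sphere over reference RNA was higher by 0.98 ± 0.21 (SE, 2 arrays per group; 1.97-fold; limma, Benjamini-Hochberg adjusted p = 0.0157 over all genes tested, threshold 0.05). The single call is 2.38% of the 42 genes, against 2.82% of all genes tested that were higher, so its share is near the background. For lower calls the background was 4%, and for both directions together 6.81%. At an unadjusted p under 0.05 limma gave 9 of the 42 higher and 1 lower, where all genes gave 9.99% and 13.2%.

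The repair genes lay mostly on the upper side without passing the test. The change in log2 ratio was above 0 for 32 of the 42 and below 0 for 10, with a median of 0.19. Of all genes tested 9288 of 21472 were above 0, and their median was -0.06. Among the 42, 10 genes were bright enough through the DAPT arrays alone. With a filter of well above background on all 4 arrays, 25 of 33 repair genes were above 0. Their median was then 0.22, and that of all genes -0.08. Both DAPT arrays lay above both vehicle arrays for 18 of the 42 (42.9%; background 21.8%) and below them for 4 (9.52%; background 31.9%). Among the 18, Ung, Xrcc2, Fanca and Fancd2 were bright enough through the DAPT arrays alone, and this count was not repeated with the stricter filter. The gap to the other genes depended on the scaling, since with median centring of the arrays in place of loess the repair genes stood at 0.18 and all genes at 0.11, a gap of 0.07, with 27 of the 42 above 0. SEs of single genes ran from 0.19 to 0.26. The 95% confidence interval, not adjusted for the number of genes, lay within a 2-fold change in either direction for 37 of the 42. It excluded 0 for 10, which are the 9 higher and 1 lower at an unadjusted p under 0.05 (limma). All genes gave 9.99% higher and 13.2% lower at that threshold.

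**Figure D1:**
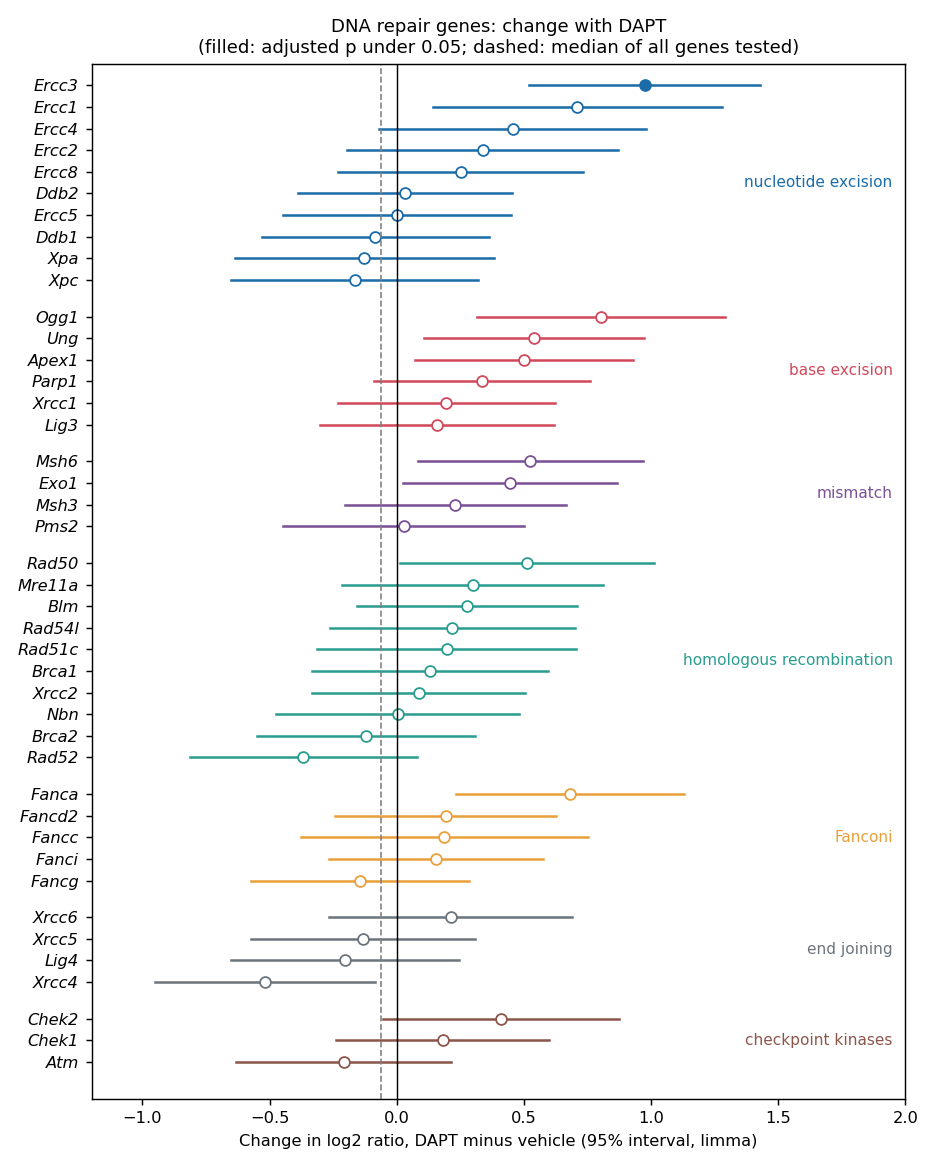
Change in log2 ratio (DAPT minus vehicle) of the 42 tested repair genes by pathway, with 95% confidence intervals from limma. Ercc3, at 0.98, is the gene past the threshold, all 6 base excision genes lie above 0, and 3 of 4 end joining genes lie below 0 (2 of 4 with the scanner's processed signals).

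Signal and marker genes also differed between the groups. The vehicle arrays had a median red signal 1.82 and 1.94 times their local background, the DAPT arrays one 2.42 and 2.85 times theirs, and 10 of the 42 repair genes were well above background on both arrays of the DAPT group alone. No gene of the 42 entered through vehicle alone. Of the spots that stand for the 42 genes, the scanner software marked 3 and 11 as uneven or as outliers on the vehicle arrays and 29 and 28 on the DAPT arrays. Over all probe spots it marked 11.5% and 29.2% on the vehicle arrays and 49.6% and 50.9% on the DAPT arrays. The basal markers Krt5, Krt14, Trp63, Itga6 and Cdh3 were well above background on all arrays, with a summed log2 red signal of 17.29 and 16.50 with vehicle and 16.79 and 16.86 with DAPT, and none passed the test. Of 7 fibroblast markers 5 fell with DAPT, and their summed log2 red signal went from 14.18 and 14.54 to 12.95 and 13.16. The endothelial marker Pecam1 and the leukocyte markers Ptprc, Cd3e, Cd79a and Lyz2 were well above background on all arrays, and none passed the test. One of 3 tested luminal markers and 1 of 4 smooth muscle markers fell. The luminal marker Pbsn and the endothelial markers Cdh5, Kdr and Tek were not well above background on any array. What part these differences have in the repair genes' values was not tested. In bulk RNA, a change in the share of a cell type and a change per cell cannot be told apart.

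Promoter sequences are shown for the 4 genes described in detail below whose window holds a word that E2F factors bind, because the cell cycle genes on the same arrays rose (below). The words searched were TTTGGCGC, TTTCCCGC, TTTGCCGC and TTTCGCGC, on both strands, in RefSeq windows of 300 bases from 250 before the transcription start (assembly GRCm38.p6). Windows were found for 38 of the 47 genes, 41 windows in all. Capitals mark the word, which reads GCGGGAAA where it lies on the opposite strand, and each line ends 30 bases after the start.
Msh6 (chr17:87974800-87975079, plus strand): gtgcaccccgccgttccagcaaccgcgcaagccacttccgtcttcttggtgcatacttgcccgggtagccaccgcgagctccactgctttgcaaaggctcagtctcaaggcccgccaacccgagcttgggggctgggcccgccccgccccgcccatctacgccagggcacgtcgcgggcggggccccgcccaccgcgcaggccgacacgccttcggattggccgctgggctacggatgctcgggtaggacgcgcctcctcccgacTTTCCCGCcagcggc
Fancg (chr4:43010272-43010551, minus strand): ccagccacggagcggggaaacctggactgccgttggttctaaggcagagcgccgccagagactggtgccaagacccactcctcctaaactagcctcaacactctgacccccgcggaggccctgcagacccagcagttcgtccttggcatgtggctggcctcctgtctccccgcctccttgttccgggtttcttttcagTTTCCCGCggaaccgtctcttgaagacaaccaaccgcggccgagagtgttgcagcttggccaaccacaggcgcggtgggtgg
Chek2 (chr5:110839733-110840012, plus strand): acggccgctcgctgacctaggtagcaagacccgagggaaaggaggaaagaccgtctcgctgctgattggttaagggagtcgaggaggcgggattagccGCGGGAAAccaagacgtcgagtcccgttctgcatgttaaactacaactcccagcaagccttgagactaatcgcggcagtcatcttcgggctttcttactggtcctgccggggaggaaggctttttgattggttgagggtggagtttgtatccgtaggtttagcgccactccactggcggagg
Xrcc6 (chr15:82016119-82016398, plus strand): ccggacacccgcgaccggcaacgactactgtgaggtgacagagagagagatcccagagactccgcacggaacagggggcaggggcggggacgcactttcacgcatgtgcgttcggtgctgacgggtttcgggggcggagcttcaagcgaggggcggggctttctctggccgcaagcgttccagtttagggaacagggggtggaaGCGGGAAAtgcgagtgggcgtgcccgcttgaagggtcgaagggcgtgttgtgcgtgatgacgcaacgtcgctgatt
The word starts at position 16 in Msh6, counted from the first transcribed base as 1, and at -52 in Fancg, -152 in Chek2 and -46 in Xrcc6. It was present in 9 of the 41 windows (21.95%; 8 genes, with Bard1, Brca2, Msh3 and Rad51c beside those printed) and in 744 of 32851 windows of all genes (2.265%). The share was 43.75% of 16 windows of replication genes and 7.692% of 13 windows of G2 and mitosis genes. The CCAAT word occurred in 53.66% of the repair gene windows against 37.41% of all windows, and TTTGAA, the core of the CHR element of mitotic genes, in 4.878% against 17.89%. The changes of repair genes with and without the E2F word overlapped. The 7 tested genes with it had changes from -0.14 to 0.53 with a median of 0.21, and the 27 without it ranged from -0.52 to 0.80 with a median of 0.19. None of these 34 genes passed the test. Ercc3 had no entry in the promoter table.

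Nucleotide excision repair held the gene that rose and several that stayed level. Of its 11 genes 10 were tested, 7 above 0 and 3 below, with a median of 0.14. The median was -0.0098 without DAPT 2, with 4 above 0 and 6 below, 0.35 with the scanner's processed signals and 0.38 with median centring. The log2 ratio of Ercc3 was 0.94 and 0.57 on the vehicle arrays and 1.64 and 1.82 on the DAPT arrays. Both DAPT values lay above both vehicle values, by more than the vehicle arrays differed from each other. Ercc3 had 1 probe, and its spot was marked as uneven or as an outlier on both DAPT arrays and on neither vehicle array. Xpc, which recognises the distorted helix first, had the lowest change of the pathway. Its ratio was 1.62 and 1.09 with vehicle and 1.08 and 1.30 with DAPT, so the groups overlapped (-0.17 ± 0.22, adjusted p = 0.707, limma). Its second probe gave -0.37.

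The incision nuclease of the pathway is a pair of proteins encoded by Ercc1 and Ercc4. Ercc1 differed by 0.71 ± 0.26 (adjusted p = 0.126, limma) and Ercc4 by 0.46. Without vehicle 2 Ercc1 differed by 0.30, and without DAPT 1 Ercc4 differed by 0.11. The vehicle arrays of Ercc1 lay far apart, at 0.90 and 0.09, with the DAPT arrays at 1.39 and 1.01. The other TFIIH helicase, Ercc2, differed by 0.34, and Ercc8, which acts where a polymerase has stalled, by 0.25. Ercc5, the nuclease that cuts on the other side of the lesion, was at 0.00, Ddb2 at 0.03, Ddb1 at -0.08 and the damage verifier Xpa at -0.13.

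All 6 base excision and single-strand break genes were tested and all 6 had changes above 0, from 0.16 to 0.80 with a median of 0.42. None passed. All 6 stayed above 0 under median centring, scale normalization and processed signals, and 5 of 6 did without DAPT 2. Ogg1, the glycosylase that removes oxidised guanine, came closest, with ratios of 0.31 and 0.56 with vehicle and 1.503 and 0.97 with DAPT. The groups did not overlap, and the change of 0.80 ± 0.23 had an adjusted p of 0.0522 (limma). A second Ogg1 probe gave 0.56. Ung, which takes uracil out of DNA, differed by 0.54 (adjusted p = 0.127, limma) and Apex1, the endonuclease that cuts at the emptied site, by 0.50 (adjusted p = 0.149, limma). Apex1 stood at 1.09 and 1.27 with vehicle and at 1.61 and 1.75 with DAPT. Parp1, the sensor of single-strand breaks, differed by 0.34, its scaffold partner Xrcc1 by 0.19 and the ligase Lig3 by 0.16. The arrays of the groups were apart for Ogg1, Ung, Apex1, Parp1 and Xrcc1 (83.3% of the 6, background 21.8%) and overlapped for Lig3. Ung was bright enough through the DAPT arrays alone. In red both DAPT arrays lay above both vehicle arrays for 3 of the 6, Ogg1, Apex1 and Parp1 (background 21.5%). In green they lay above for Apex1 and Parp1 (background 22.1%) and below for Ogg1, Ung and Lig3 (background 18.4%). Of 13 other tested genes of this pathway, taken from the other repair genes below, 7 were above 0 and 6 below, with a median of 0.11. Smug1 was the only one of these called, as lower.

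The 4 mismatch repair genes had changes from 0.03 to 0.53, with a median of 0.34, and none passed. With median centring 3 of the 4 were above 0, since Pms2 then stood at -0.21, and the median was 0.56. Msh6 encodes a subunit of the complex that recognises single mismatches, and its promoter above holds the E2F word just after the start. Its ratio was -0.33 and -0.04 with vehicle and 0.45 and 0.24 with DAPT, without overlap (0.53 ± 0.20, adjusted p = 0.145, limma). Exo1, the exonuclease that removes the faulty strand, differed by 0.44, Msh3, which acts on small loops, by 0.23, and Pms2 by 0.03. Pms2 was not well above background on either vehicle array.

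Homologous recombination was the largest group, with 10 of 12 genes tested, 8 above 0 and 2 below, and a median of 0.16. Without vehicle 1 the split was 4 above and 6 below, with a median of -0.031, and with processed signals the median was 0.44. Rad50, which holds broken ends together in the complex with Mre11a and Nbn, had the largest change. Its ratio was -0.02 and 0.34 with vehicle and 0.41 and 0.94 with DAPT (0.51 ± 0.23, adjusted p = 0.204, limma). The groups were apart, but by less than the arrays of either group differed, and without DAPT 2 the change was 0.25. Mre11a, the nuclease of that complex, differed by 0.30 and Nbn, its signalling subunit, by 0.00. A second, dimmer Mre11a probe went the other way, at -0.33, with both DAPT arrays below both vehicle arrays. Rad52, a protein that anneals single strands, had the lowest change. It was at 0.09 and 0.45 with vehicle and -0.04 and -0.16 with DAPT, again without overlap (-0.37 ± 0.21, adjusted p = 0.312, limma). Blm, the helicase mutated in Bloom syndrome, differed by 0.27, the motor protein Rad54l by 0.22 and the recombination proteins Rad51c and Xrcc2 by 0.20 and 0.09. The breast cancer susceptibility genes Brca1 and Brca2 were at 0.13 and -0.12.

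Of the 5 Fanconi genes 4 were above 0, with a range from -0.14 to 0.68 and a median of 0.19, and none passed. With median centring 3 of the 5 were above 0 (median 0.12), with processed signals all 5 (median 0.37), and without DAPT 1 the median was 0.045. Fanca, a core subunit of the Fanconi ubiquitin ligase, stood at 0.10 and -0.09 with vehicle and at 0.85 and 0.52 with DAPT, without overlap (0.68 ± 0.21, adjusted p = 0.0683, limma). It was not well above background on either vehicle array and was on both DAPT arrays. In the red channel its mean was 1.92-fold higher with DAPT, an estimate that did not pass the test (0.94 ± 0.32 in log2, adjusted p = 0.369, limma). A second, dimmer Fanca probe gave 0.62. With median centring the change of the brighter probe was 0.12. Fancg, another core subunit, was at -0.07 and 0.17 with vehicle and at -0.08 and -0.11 with DAPT, with the groups barely apart (-0.14 ± 0.20, adjusted p = 0.712, limma). Fancd2 and Fanci, the pair that the ligase modifies, differed by 0.19 and 0.15, and Fancc by 0.19.

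End joining was the pathway with a median below 0 when each gene was read by its brightest probe. Of its 5 genes 4 were tested, with 1 above 0 and 3 below, a median of -0.17 and no call. With processed signals 2 were above 0 and 2 below, and the median was -0.025, while with scale normalization it was -0.34. Xrcc4, the scaffold of the ligase, had the lowest change of all 42 genes. Its ratio was 0.61 and 0.80 with vehicle and 0.09 and 0.28 with DAPT, without overlap (-0.52 ± 0.20, adjusted p = 0.140, limma). A second, dimmer Xrcc4 probe went the other way, at 0.34. Lig4, the ligase itself, was at -0.20, and its second, dimmer probe also went the other way, at 0.25. The Ku subunits bind the broken ends first, and their changes were 0.21 ± 0.22 for Xrcc6 (Ku70; adjusted p = 0.614, limma) and -0.13 for Xrcc5 (Ku80). Xrcc6 was at -0.22 and -0.43 with vehicle and at 0.14 and -0.37 with DAPT, so the groups overlapped.

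Among the checkpoint kinases, which halt the cycle when damage is sensed, 3 were tested and none passed. Chek2, which acts after double-strand breaks, was at 0.13 and 0.01 with vehicle and at 0.25 and 0.70 with DAPT (0.41 ± 0.21, adjusted p = 0.275, limma). Atm, the kinase upstream of it, was at 0.01 and -0.02 with vehicle and at -0.12 and -0.30 with DAPT (-0.21 ± 0.19, adjusted p = 0.567, limma). Both were without overlap, in opposite directions. Chek1, the kinase downstream of Atr, differed by 0.18.

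**Figure D2:**
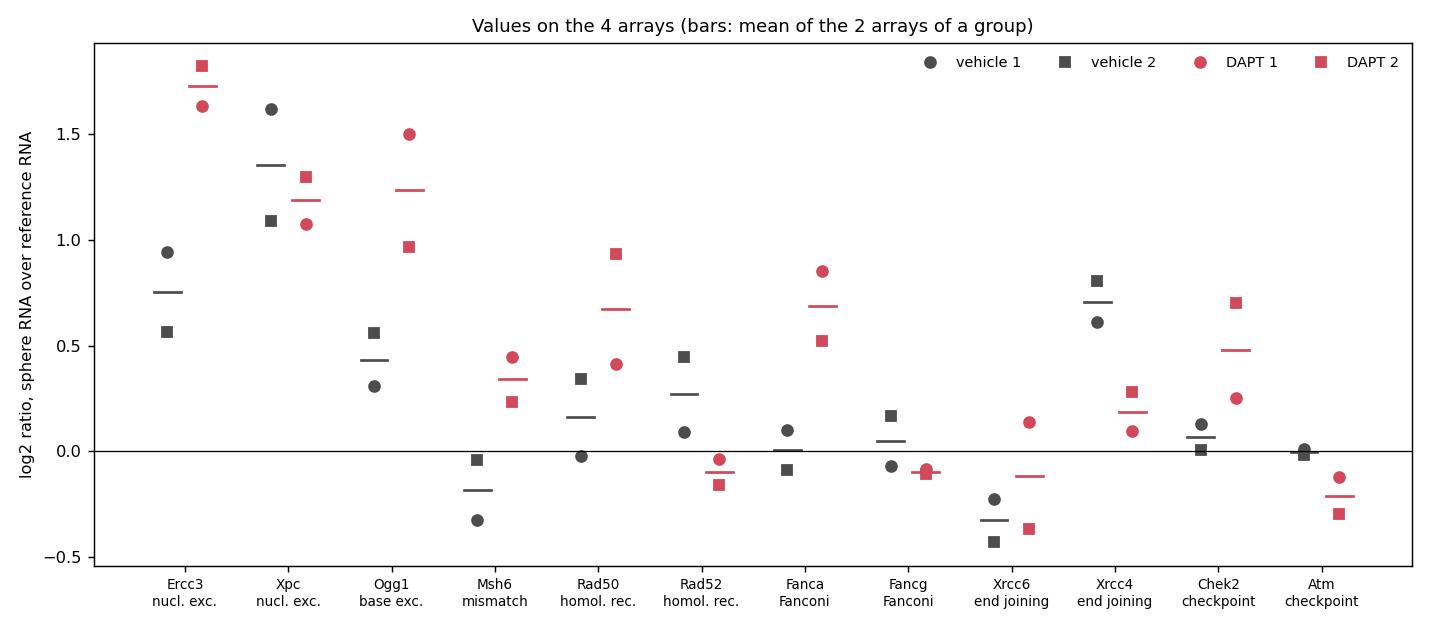
Log2 ratio of sphere over reference RNA on each of the 4 arrays for the gene with the largest change above 0 in each pathway and, where any gene was below 0, the one with the largest change below 0, with bars at the mean of the 2 arrays of a group. For Ercc3 both DAPT arrays (1.64 and 1.82) lie above both vehicle arrays (0.94 and 0.57), whereas for Xpc and Xrcc6 the groups overlap.

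The ratios rest on both dyes, so each channel was also read alone, after loess within arrays and quantile normalization between arrays. That second step evened out the average log2 signal of both dyes between arrays, not the reference channel. In red, which carries the sphere RNA, limma called none of the 42 genes (8 higher and 0 lower at an unadjusted p under 0.05, where all genes gave 6.29% and 5.9%), and over all genes it called 0% higher and 0.00466% lower. Both DAPT arrays lay above both vehicle arrays in red for 17 of the 42 genes (40.5%; background 21.5%) and below them for 1 (background 25.1%), which was Fancg. Among the 17, Brca1, Fanca and Xrcc6 were bright enough in red through the DAPT arrays alone. In green both DAPT arrays lay above both vehicle arrays for 10 of the 42 (background 22.1%) and below them for 5 (background 18.4%), and over all genes limma called 0%. The median change was 0.28 in red and 0.17 in green. Ratio and red were both above 0 for 28 genes and both below 0 for 7. For the other 7 the signs differed, with 4 above 0 in ratio alone and 3 above 0 in red alone.

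Ercc3 had a change above 0 in both channels, and neither passed the test there. Its log2 red signal was 8.61 and 7.13 with vehicle and 9.63 and 8.67 with DAPT, and its green signal was 7.67 and 6.57 against 7.997 and 6.85. The lower DAPT array in red thus stood just above the higher vehicle array, and the change was 1.28 in red and 0.30 in green, where the groups overlapped. Ogg1 was the reverse case, with 0.60 in red and -0.20 in green, so part of its ratio lies in the reference channel. Fanca changed by 0.94 in red against 0.26 in green, and Msh6 by 0.84 against 0.32.

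In 20 of the 42 genes the change in green, where every array carried the same reference RNA, was larger in size, whatever its sign, than the change in ratio. Ddb1 had 1.04 in red and 1.13 in green, Ercc2 1.19 and 0.86, and Parp1 1.14 and 0.80, with both DAPT arrays above both vehicle arrays in both channels. Chek2 had a change of -0.02 in red, and its ratio of 0.41 came with a green change of -0.43. Lig3 had changes of -0.44 in red, where the groups overlapped, and -0.60 in green. Across the 42 genes the red and green changes correlated at r = 0.73, and the ratio and red changes at 0.68. Both dyes of a spot share its printing and its place on the array, so these values are descriptions only.

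**Figure D3:**
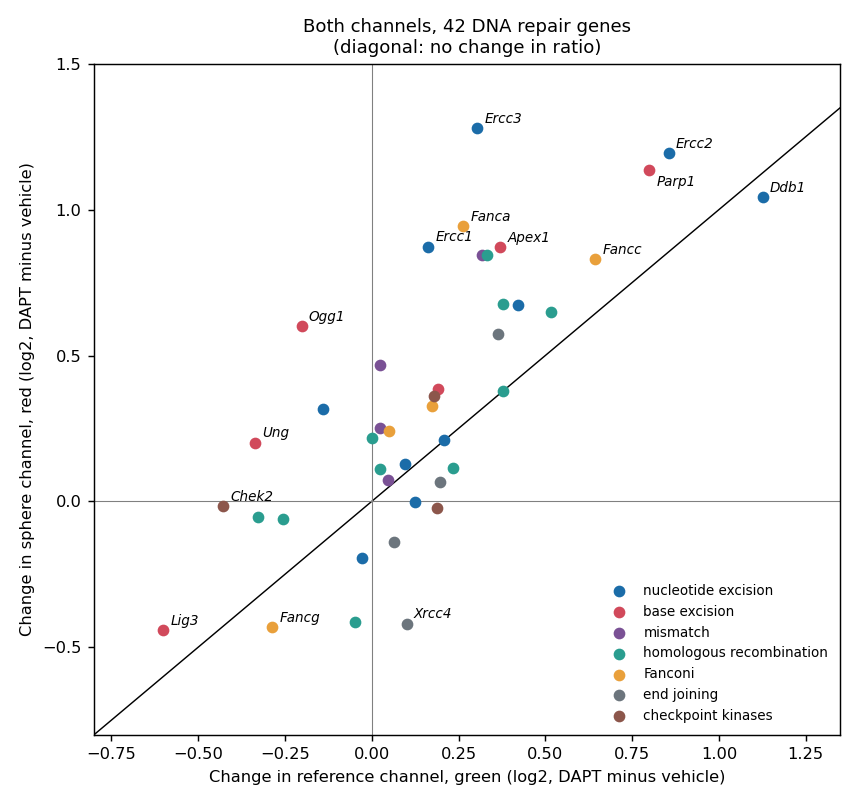
Change in the sphere channel (red) against change in the reference channel (green), both in log2 as DAPT minus vehicle, for the 42 tested repair genes, coloured by pathway. Points above the diagonal have a higher ratio with DAPT. Ercc3 lies at 0.30 in green and 1.28 in red, and Ercc2, Parp1 and Ddb1 lie high in both.

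A second probe, or in Msh3 a pair of further probes, was bright enough for 17 genes. Of these 18 probes 12 had the sign of the gene's brightest probe and 6 the opposite one, in Brca2, Lig4, Mre11a, Msh3 and Xrcc4. With every probe tested on its own, 2 repair gene probes passed. One was that of Ercc3. The other was the dimmer probe of Nbn, which was 0.30 on both vehicle arrays and 1.00 and 1.01 on the DAPT arrays (0.71 ± 0.19, adjusted p = 0.0456, limma), while the brighter Nbn probe had a change of 0.00. Which of the Nbn probes reports the transcript was not tested.

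Other genes of the same pathways, from a list of 81, were read in the same way. Of 71 tested, 3 rose and 1 fell, with 43 above 0, 28 below and a median of 0.08. Rnf168, a ubiquitin ligase at breaks, rose by 0.89 and Topbp1, an activator of Atr, by 0.80, at adjusted p = 0.0366 and 0.0422 (limma). Smug1, a uracil glycosylase, fell by 0.72 (adjusted p = 0.0437, limma). The calls of Rnf168, Topbp1 and Smug1 were lost with the scanner's processed signals and with 13 debris spots of DAPT 2 kept (spots with a far brighter surround, otherwise left out), and median centring ended those of Rnf168 and Smug1. The calls of Rnf168 and Smug1 were lost without vehicle 1 (adjusted p = 0.106 and 0.0888, limma) and without DAPT 2 (0.190 and 0.146). That of Topbp1 was lost without vehicle 1 (0.0902) and without DAPT 1 (0.209), and that of Smug1 also without vehicle 2 (0.0646) and DAPT 1 (0.0925).

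Cell cycle genes on the same arrays give a measure beside which the repair genes can be read. Of 34 tested, 16 rose and none fell (47.1% against a background of 2.82%), with a median change of 0.72, against 0.19 for the repair genes. Replication genes gave 8 of 19, with a median of 0.69, and genes of G2 and mitosis 8 of 15, with a median of 0.79. The 16 calls became 14 with scale normalization, 10 with processed signals and 0 with the debris spots kept, where the median was still 0.65. They became 22 with median centring, where all 34 were above 0 with a median of 1.00. The replicate number as a block gave 21 and the separate-channel fit 23. Leaving out 1 array, the median ran from 0.65 without vehicle 1 to 0.80 without vehicle 2. The difference between these lists and the repair genes was not tested.

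**Figure D4:**
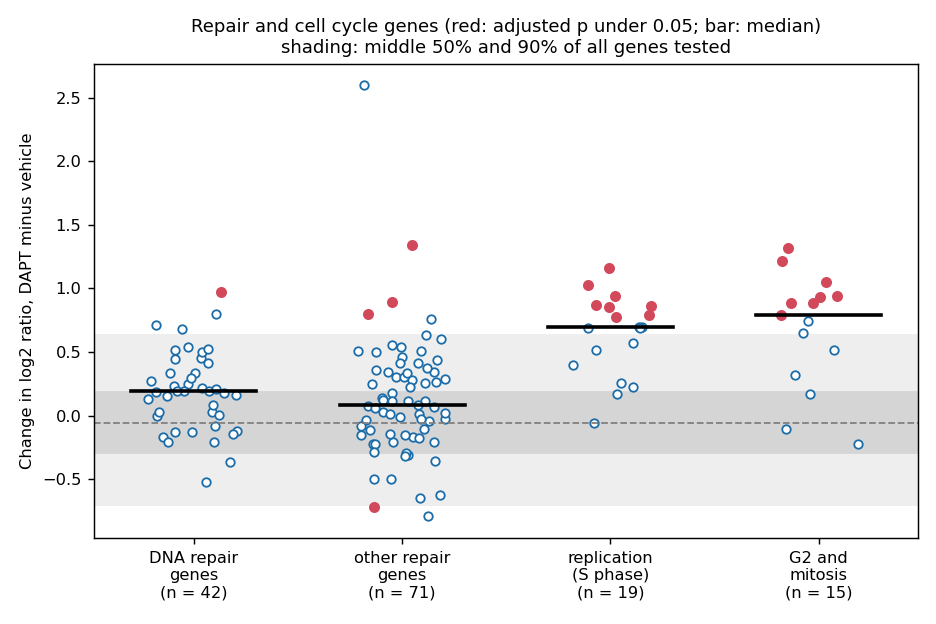
Change in log2 ratio (DAPT minus vehicle) of single genes for the 42 repair genes, the other repair genes and the cell cycle lists. Bars are medians, red points passed the threshold, the dashed line is the median of all genes tested (-0.06) and the shading holds the middle 50% and 90% of them. The open point at 2.60 is Brip1. Medians of the cell cycle lists are 0.69 and 0.79, and that of the 42 repair genes is 0.19.

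How firmly the Ercc3 call stands depends on the processing. It was kept in 10 of 15 alternative settings that measured it, and its change ran from 0.28 to 1.16. It was lost without vehicle 2 (0.79, adjusted p = 0.0573, limma), with the scanner's processed signals (0.28, adjusted p = 0.721), with median centring (0.67, adjusted p = 0.0731), with scale normalization between arrays (0.72, adjusted p = 0.0678) and with the debris spots of DAPT 2 kept (0.29, adjusted p = 0.866). Over the main setting and 16 alternatives 6 repair genes were called at least once by their brightest probe, all of them higher. These were Ercc3, Ogg1, Ercc1, Fanca, Apex1 and Msh6, and the dimmer Nbn probe passed beside them when every probe was tested on its own. Ogg1 passed in 6 alternatives, and no repair gene was called lower in any. Changes of the genes described in detail also varied in size, from 0.37 to 1.07 for Ogg1, 0.38 to 0.92 for Msh6, 0.15 to 0.64 for Chek2 and -0.55 to -0.19 for Rad52. The sign of the change was the same in every setting that measured the gene for 22 of the 42 and changed in at least 1 setting for 20. Rad52, Xrcc4, Lig4 and Atm were below 0 in every one, each read by the probe that stood for the gene. The dimmer probes of Xrcc4 and Lig4 were above 0, at 0.34 and 0.25.

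**Figure D5:**
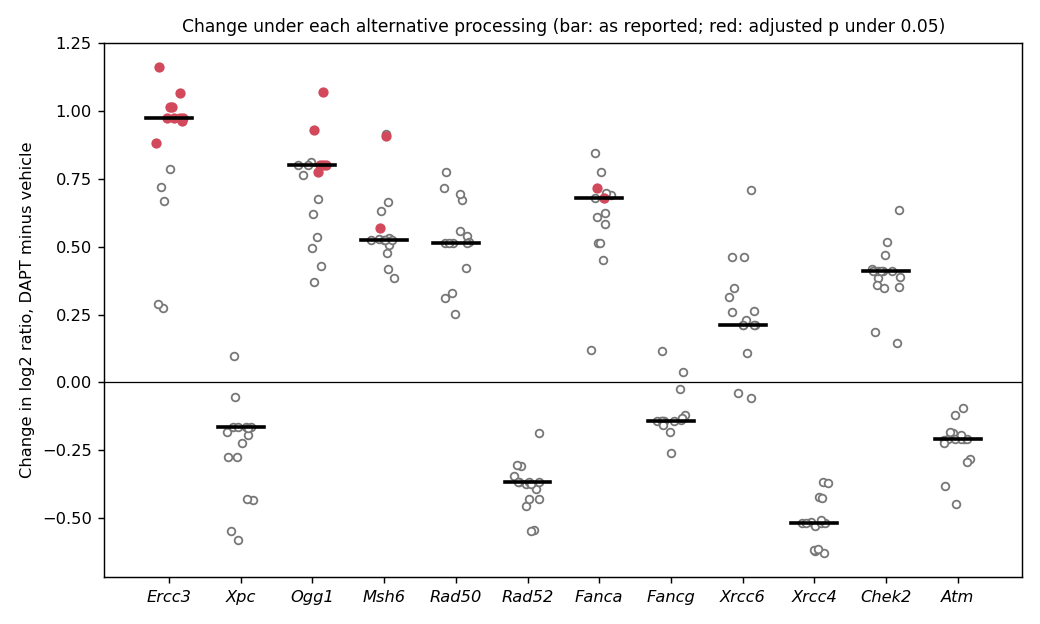
Change in log2 ratio of the genes described in detail under each alternative, with a bar at the reported value and red points where the gene passed the threshold. Ercc3 runs from 0.28 to 1.16 and stays above 0, while Xpc, Fancg and Xrcc6 cross 0.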

How the data were processed

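RNA of vehicle and DAPT spheres was read on 4 two-colour arrays (2.5 µg total RNA), all on 1 slide with 1 scan time. Per the file headers, Agilent Feature Extraction 10.7.3.1 wrote the scanner files, whose median spot and background intensity values were not normalized, beside processed intensity values, and the deposited log10 ratio there is red over green. The authors' deposited table of log2 values correlated at 0.9996 to 0.9998 with the ratios computed here, with column medians of 0.00072, -0.0106, -0.0150 and -0.0115. How the authors normalized it was not stated there.

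On DAPT 2, 13 spots lying on debris (background more than 5 times that array's median) were set missing. Background was corrected by normexp (offset 50) and ratios by loess within arrays, with control spots at weight 0, in limma 3.58.1 (R 4.3.3). Median signals replaced the mean signals of the planned design. A probe was kept where both arrays of a group had it well above background in the sphere channel, and the brightest stood for its gene. Of 41174 probes 24375 were named through RefSeq accessions. lmFit and eBayes (two-sided, 2 residual and 10.5 prior degrees of freedom) compared the groups, with Benjamini-Hochberg adjustment over 21472 genes. Single channels were read after Aquantile normalization. The code was tested on simulated data. An exact permutation test of 2 against 2 arrays cannot go below p = 0.333.

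The sources do not state that arrays of a group came from different cultures or mice, so the spread behind each p-value may be technical. Log ratios correlated at 0.921 between vehicle arrays, 0.943 between DAPT arrays and 0.838 to 0.878 between groups. No spot was saturated, and the number of arrays limits the precision. Genes printed array by array are those past the threshold and, in each pathway, the largest change above 0 and below 0. Ercc1, Apex1 and the dimmer Nbn probe were added after their values were seen. Results of some genes on the comparison lists are not reported here. The genes and lists were chosen with earlier results of these data known. Alternatives covered signals, background, scaling, filters, marked spots, debris, single arrays, the replicate number as a block and a separate-channel fit.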

Additional observations from a re-analysis of the deposited data

How the results depend on the processing

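With 2 arrays per group, the 95% interval of a single repair gene reached from 0.42 to 0.57 to either side of its change. A gene whose interval held 0 cannot be told from 0. The intervals are not adjusted for the number of genes, so an interval that excluded 0 is not a call. The repair genes' median had a spread of 0.05 between replicates. The count of repair genes higher with DAPT, 1 in the report, was 0 with processed signals, scale normalization or the debris spots kept. It was 2 with median centring or with a filter of well above background on all 4 arrays, and 5 with a separate-channel fit. Of all genes tested, 2.82% were higher in the report, 1.33% with processed signals, 1.72% with scale normalization and 0.0186% with the debris spots kept. The share was 5.66% with median centring, 2.58% with that filter and 5.53% with the separate-channel fit. Same-numbered arrays deviated together at r = 0.0857, so the numbers are not shown to pair the samples. A fit with the replicate number as a block called 4 repair genes higher (Ercc1, Ercc3, Fanca and Ogg1) and 4.07% of all genes. The count lower was 0 in every alternative. The median of 0.19 became 0.44 with processed signals, 0.34 with marked spots left out, where 19 of the 42 genes could be tested, and 0.10 to 0.24 leaving out 1 array. Changes reversed for Xpc without vehicle 1 (range -0.43 to 0.098 leaving out 1 array), for Fancg with processed signals (0.039) and median centring (0.12), and for Xrcc6 with median centring (-0.059) and without DAPT 1 (range -0.041 to 0.46 leaving out 1 array). Over all genes the calls were 605 higher and 858 lower, 286 and 336 with processed signals, 1216 and 527 with median centring (69.8% higher against 41.4%), 369 and 974 with scale normalization (27.5%), 318 and 251 with marked spots left out (55.9%), 4 and 83 with debris spots kept (4.60%), and 1187 and 1413 with the separate-channel fit. Where a value changed, the cause was not tested, apart from fewer genes or samples entering.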

Other observations

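Brip1, a helicase that binds Brca1 and a gene of the other repair list, is named here after its values were seen. Its brighter probe was -0.57 and -0.51 with vehicle and 0.26 and 3.86 with DAPT (2.60 ± 0.75, adjusted p = 0.0566, limma), and its change of 4.94 in red was the highest of all genes tested. The spot rested on DAPT 2, where its median red intensity was 42247 against 75, 67.5 and 111.5 on the other arrays and where the scanner software marked it as uneven or as an outlier. The other Brip1 probe stood at -0.43 and -0.02 with vehicle and -0.23 and -0.45 with DAPT, with a change of -0.11 and a median red intensity of 215 on DAPT 2.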
